A study of Homo sapiens with 28 samples.

Results

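BMP6, a secreted ligand of the bone morphogenetic protein (BMP) family, and 9 further genes of BMP signalling were followed across all 8 treatment groups of LNCaP cells, a line of human prostate cancer that responds to androgen. The members were the ligands BMP6, BMP4 and BMP7, the receptors BMPR1A, BMPR1B and BMPR2, the intracellular inhibitor SMAD6, and the targets ID1, ID2 and ID3. They were the rows of the count table with these 10 symbols, out of 61815 human genes. BMP6 was chosen by its higher RNA with Mediator kinase inhibitors in these same libraries, so its 4 inhibitor values are given as a description with no test.

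All cells were first deprived of androgen with charcoal-stripped serum, from which steroids have been removed. The vehicle was DMSO at 0.1%. In the first experiment, cells received for 24 h vehicle, Senexin B at 1 µM, the synthetic androgen R1881 at 0.1 nM, or both agents, with 3 libraries per group. In the second, cells received for 72 h vehicle, SNX631 at 500 nM, R1881 at 1 nM, or both agents, with 4 libraries per group. Senexin B and SNX631 are chemically unrelated inhibitors of CDK8 and CDK19, the kinases of the Mediator complex. Doses are those of the labels, and the text of the study gives another dose of Senexin B. Time, androgen dose, inhibitor and experiment differ at once between the series of libraries, so their parts cannot be told apart, and the 24 h and 72 h values are set side by side without a comparison.

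BMP ligands bind a complex of type I receptors, such as BMPR1A and BMPR1B, and type II receptors, such as BMPR2. The active receptor phosphorylates SMAD1, SMAD5 and SMAD9, which enter the nucleus with SMAD4 and switch on the ID genes, whose products block basic helix-loop-helix transcription factors, and SMAD6, which feeds back on the receptors. In prostate cancer, BMP6 is known above all from tumours that spread to bone. Higher BMP6 RNA with the inhibitors raises the question of whether the RNA of the ID genes and SMAD6 is higher too. Each inhibitor was measured at 1 time, so an order in time cannot be told. Only RNA was measured, so secreted BMP6, SMAD phosphorylation and receptor activity were not analysed here.

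Libraries held from 9846595 to 33809419 counts, the highest being vehicle replicate 3 at 24 h and the next 15248512. Levels are given in CPM, the count of a gene relative to the depth of its library, scaled within each experiment by TMM. Of 8 luminal prostate markers, KRT8 (457 to 1010.0 CPM), KRT18 (278 to 642 CPM), FOLH1 (675 to 1494 CPM) and HOXB13 (309 to 466 CPM) were carried by all 28 libraries. SLC45A3 (20.8 to 389 CPM) and TMPRSS2 (14.3 to 270 CPM) ranged more widely. KLK3 (0.700 to 148 CPM) and TRPM8 (0.0763 to 51.4 CPM) fell under 1 CPM in their lowest libraries. Of 13 markers of basal, stromal, immune and endothelial cells, 9 stayed under 1 CPM in every library, and the exceptions were COL1A1 (7.36 to 31.4 CPM), COL3A1 (0.878 to 12.9 CPM), VWF (0.332 to 4.56 CPM) and CD68 (0.343 to 1.38 CPM). Their part in the results was not tested. Fewer expressing cells and less RNA per cell cannot be told apart in such bulk samples. The study's methods call the replicates of its RNA-Seq biological, and the labels do not say whether they were separate cultures, so p values measure the spread between these libraries.

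The sequences just upstream of BMP6 and of the 4 genes that report on the pathway are shown because the inhibitors act on transcription and SMAD proteins bind DNA at short motifs. Each is the 250 bases before the RefSeq transcription start on GRCh38.p14, 5′ to 3′ on the strand of the gene. The gene positions given below come from GENCODE 29, whose starts differ. By those positions the ID2 and ID3 windows lie within the genes, and the ID1 and SMAD6 windows reach past the start. The search covered 4 motifs on both strands, and capitals mark a match. The motifs were GTCTAGAC, the palindrome of the SMAD box, GGCGCC, a GC-rich SMAD site, AGAACA, a half-site of the androgen receptor, and the full androgen receptor site, made of AGAACA, any 3 bases and TGTTCT, which contains the half-site.

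The BMP6 window lies at chr6:7725849-7726098 on the plus strand.
BMP6: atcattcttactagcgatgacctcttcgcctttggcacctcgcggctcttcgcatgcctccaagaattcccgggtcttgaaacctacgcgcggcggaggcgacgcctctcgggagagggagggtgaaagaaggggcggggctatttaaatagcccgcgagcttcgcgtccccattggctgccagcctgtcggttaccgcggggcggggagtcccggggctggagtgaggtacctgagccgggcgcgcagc
The ID1 window lies at chr20:31605039-31605288 on the plus strand.
ID1: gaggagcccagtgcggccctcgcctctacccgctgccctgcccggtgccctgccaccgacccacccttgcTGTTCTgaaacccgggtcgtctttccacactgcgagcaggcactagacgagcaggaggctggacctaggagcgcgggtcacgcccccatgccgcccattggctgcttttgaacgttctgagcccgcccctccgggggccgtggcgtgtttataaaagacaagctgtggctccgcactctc
The ID2 window lies at chr2:8681806-8682055 on the plus strand.
ID2: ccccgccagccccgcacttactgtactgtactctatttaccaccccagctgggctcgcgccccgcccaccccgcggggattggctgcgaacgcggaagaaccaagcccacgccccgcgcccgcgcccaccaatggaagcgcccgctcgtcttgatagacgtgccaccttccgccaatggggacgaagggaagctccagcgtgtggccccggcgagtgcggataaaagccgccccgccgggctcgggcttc
The ID3 window lies at chr1:23559502-23559751 on the minus strand.
ID3: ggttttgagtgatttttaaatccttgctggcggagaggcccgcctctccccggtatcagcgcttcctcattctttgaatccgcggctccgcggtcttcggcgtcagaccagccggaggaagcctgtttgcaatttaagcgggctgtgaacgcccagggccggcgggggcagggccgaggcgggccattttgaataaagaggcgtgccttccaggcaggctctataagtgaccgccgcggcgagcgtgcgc
The SMAD6 window lies at chr15:66701986-66702235 on the plus strand.
SMAD6: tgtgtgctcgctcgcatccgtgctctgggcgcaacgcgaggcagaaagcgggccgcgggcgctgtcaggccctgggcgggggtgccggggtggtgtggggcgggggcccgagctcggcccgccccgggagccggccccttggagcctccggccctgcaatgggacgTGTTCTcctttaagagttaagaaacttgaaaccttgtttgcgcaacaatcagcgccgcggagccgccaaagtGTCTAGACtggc

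The SMAD6 window held GTCTAGAC between 12 and 5 bases upstream of the start, a palindrome found in 64 of 35116 RefSeq windows of this length (0.182%). The half-site AGAACA, present in 12.4% of windows, lay on the opposite strand of the SMAD6 window, 84 to 79 bases upstream, and of the ID1 window, 180 to 175 bases upstream. GGCGCC, present in 16.4% of windows, matched in the windows of BMP4 and BMPR2. None of the 4 motifs matched in the windows of BMP6, ID2, ID3, BMPR1A or BMPR1B, which says only that these letters are absent from these bases. The full androgen receptor site matched in 1 of the 35116 windows, and that window belongs to no member. Windows were found for 9 of the 10 members.

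BMP6 RNA was higher in every inhibitor-treated library than in every library of its matched control, with and without androgen. These contrasts chose the gene, so the separation is a description with no test. Of all genes, 23.5 and 22.6% at 24 h and 17.6 and 19.9% at 72 h separated upward in this way (without and with R1881). The protein-coding gene spans chr6:7726797-7881422 on the plus strand in GENCODE 29 on GRCh38, where it starts downstream of the RefSeq start, and all gene positions below are from the same annotation. Its level was 9.67, 9.74 and 10.0 CPM in the 24 h vehicle libraries and 41.1, 41.2 and 45.1 CPM with Senexin B. With R1881 at 24 h it was 5.14, 2.38 and 3.63 CPM, and with R1881 and Senexin B 8.55, 13.5 and 13.7 CPM. The Senexin B libraries stood far above the others, while the libraries with both agents lay on either side of the vehicle libraries.

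At 72 h, BMP6 measured 4.96, 5.80, 4.81 and 6.40 CPM with vehicle and 26.9, 25.8, 27.2 and 31.3 CPM with SNX631. With R1881 it measured 3.66, 3.32, 4.10 and 3.86 CPM, and with R1881 and SNX631 8.46, 6.57, 7.63 and 6.30 CPM. As at 24 h, the inhibitor group without androgen was highest and the R1881 group lowest. The group with both agents came next and vehicle after it in both experiments, but libraries of these neighbours overlapped each time.

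The difference in BMP6 with Senexin B was 2.10 ± 0.10 on the log2 scale without R1881 (SE, here and below), or 4.30-fold, and 1.68 ± 0.19 with it. With SNX631 it was 2.33 ± 0.10 without R1881, or 5.02-fold, and 0.95 ± 0.14 with it. Counted from the largest rise, BMP6 held rank 6 without R1881 and 17 with R1881 among 15948 genes at 24 h, and rank 7 and 110 among 16074 genes at 72 h. The inhibitor effect with R1881 minus that without came to -0.42 ± 0.22 (24 h) and -1.38 ± 0.17 (72 h) in log2 units. These values come from the contrasts that chose the gene. The first of them ran from -0.68 to -0.14 as single libraries were left out, the ends being set by R1881 replicates 2 and 1, the libraries with 27 and 56 BMP6 counts.

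**Figure D1:**
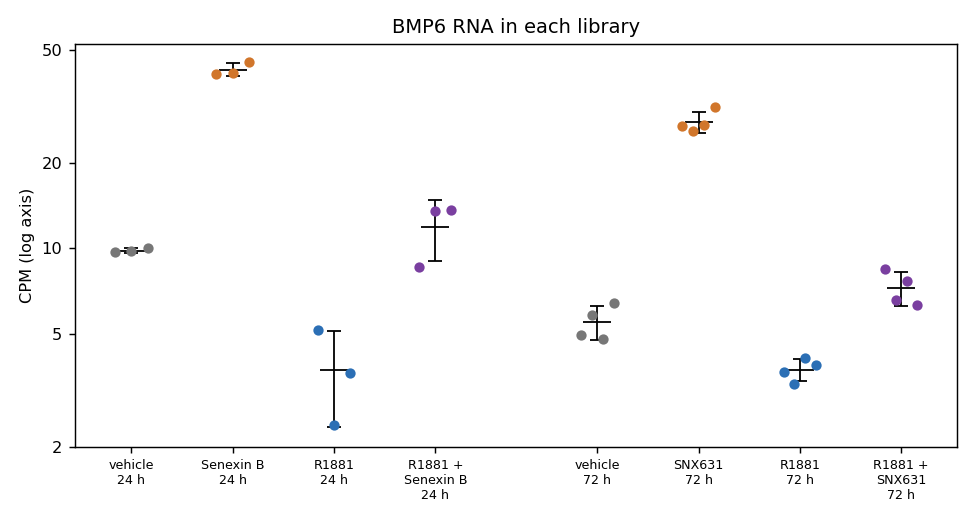
BMP6 RNA in each of the 28 libraries, in CPM on a log axis, for the 4 groups at 24 h (3 libraries each) and at 72 h (4 libraries each); points are libraries, bars the mean ± SD. The inhibitor groups without androgen lie between 25.8 and 45.1 CPM, above all other groups, and the R1881 groups lie lowest, between 2.38 and 5.14 CPM.

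Androgen had the opposite direction. A gene is called here when its false discovery rate (FDR, Benjamini-Hochberg over all genes tested) is under 0.01 and its fold change over 1.5. R1881 lowered BMP6 by this rule at 24 h without inhibitor (log2 fold change -1.41 ± 0.19, FDR 2.05e-08). The R1881 value was -1.84 ± 0.11 with Senexin B and -1.94 ± 0.09 with SNX631. These 2 start from the groups whose high BMP6 chose the gene, so they are a description with no test. At 72 h without inhibitor the value was -0.56 ± 0.15 (FDR 0.000974), a fold change of 1.48 that fell short of the fold limit, although every R1881 library lay below every vehicle library. It moved between -0.62 and -0.48 as libraries were left out, passing the fold limit in 3 of 16 such fits (without vehicle replicate 1 or 3, or R1881 replicate 3). The R1881 and inhibitor contrasts share libraries, so they are not separate evidence on BMP6.

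BMP6 was the only well expressed ligand among the members. BMP4 (chr14:53949736-53958761) had 0 to 11 counts and BMP7 (chr20:57168748-57266629) 0 to 4 counts per library, and both failed the filter on low counts, so that 8 of 10 members were tested in each experiment. The largest BMP4 count, 11, came from the deepest library and equalled 0.313 CPM. In the R1881 and SNX631 group BMP4 had 0 counts in all 4 libraries. Reads of BMP7 cannot be told apart from those of the antisense gene BMP7-AS1 if strand was ignored in counting, which the sources used here do not say. No inhibitor difference in BMP4 or BMP7 was detectable at this depth.

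In the libraries in which BMP6 RNA was higher, the 4 genes that report on BMP signalling showed no called change. Over ID1, ID2, ID3 and SMAD6 and the 4 inhibitor contrasts, edgeR called 0 of 16 values, and DESeq2 called 0 as well, against 3.79, 3.12, 4.77 and 4.12% of all genes called by edgeR in these contrasts (Senexin B without and with R1881, then SNX631 without and with R1881). At an unadjusted p under 0.05 there were 11 of 16 values, of which 10 were higher and 1 lower, where 44, 42.1, 44.6 and 49% of all genes met it in these contrasts (22.6, 22.7, 23 and 25.1% higher, and 21.4, 19.4, 21.6 and 23.9% lower). The log2 fold changes lay between -0.31 and 0.30. The 95% intervals of all 16 fell inside the fold limit of 0.585 on the log2 scale, reaching from -0.46 to 0.39.

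Some smaller differences in these genes exceeded the spread between libraries. Without the fold limit, 7 of the 16 values had an FDR under 0.01, of which 6 were higher and 1 lower with inhibitor. Of all genes, 25.1, 22.7, 26.9 and 33.1% did so in the 4 contrasts, in the order above, with 13.5, 12.7, 14.4 and 17.8% higher and 11.7, 9.99, 12.5 and 15.4% lower. The 6 higher values belonged to ID2 and ID3, and the lower one to ID1.

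ID2 (chr2:8678845-8684453) measured 86.2, 84.0 and 86.4 CPM with vehicle at 24 h and 105, 102 and 109 CPM with Senexin B. It measured 83.8, 88.5 and 90.6 CPM with R1881 and 115, 102 and 99.5 CPM with both. The treated libraries lay above their controls in both pairs of groups. The log2 fold change was 0.30 ± 0.04 without R1881 (FDR 2.95e-06) and 0.27 ± 0.05 with it (FDR 5.98e-05), or 1.23-fold and 1.20-fold. At 72 h, ID2 had 86.0, 83.8, 79.6 and 78.8 CPM with vehicle and 102, 94.5, 91.7 and 78.0 CPM with SNX631, so that the groups overlapped through 1 library (0.16 ± 0.05, FDR 0.00807). In the presence of R1881 the SNX631 difference was 0.06 ± 0.04 (FDR 0.277), between groups at 114 ± 3.09 and 119 ± 3.36 CPM (mean ± SD). The antisense gene ID2-AS1 overlaps ID2, and its reads cannot be told apart from those of ID2 if strand was ignored. Of the 28 ID2 values, 0 had a fractional part.

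ID3 (chr1:23557918-23559794) measured 118, 123 and 124 CPM with vehicle at 24 h and 133, 148 and 139 CPM with Senexin B, without overlap (0.20 ± 0.05, FDR 0.00127). With R1881 it stood at 72.6, 77.1 and 69.0 CPM, and with both agents at 96.0, 85.9 and 78.6 CPM, again without overlap (0.25 ± 0.06, FDR 0.00108). At 72 h, ID3 had 102, 102, 99.5 and 97.1 CPM with vehicle and 122, 116, 110.0 and 89.8 CPM with SNX631. Replicate 4 of SNX631 fell below every vehicle library while the other 3 lay above, and the difference of 0.13 ± 0.05 missed the limit (FDR 0.0458). With R1881, SNX631 libraries at 67.3, 77.9, 71.0 and 68.3 CPM lay above the R1881 libraries at 61.8, 62.5, 60.7 and 59.4 CPM (0.22 ± 0.06, FDR 0.00324).

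ID1 (chr20:31605283-31606515), often used as a readout of BMP activity, was not called higher in any inhibitor contrast. It measured 67.1, 66.3 and 69.9 CPM with vehicle at 24 h and 67.0, 70.3 and 63.0 CPM with Senexin B, and these groups overlapped (-0.03 ± 0.06, FDR 0.743). With R1881 it had 55.8, 64.8 and 54.0 CPM and with both agents 74.6, 58.1 and 61.4 CPM, also overlapping (0.15 ± 0.07, FDR 0.091). With SNX631 at 72 h, where BMP6 was 5.02-fold higher, ID1 was lower, at 41.5, 43.8, 41.1 and 30.5 CPM against 54.1, 51.6, 43.9 and 45.9 CPM with vehicle. The groups just missed each other, and the difference was -0.31 ± 0.07 (FDR 0.000925). With R1881 the SNX631 value was 0.01 ± 0.07 (FDR 0.926), and its sign turned when counts were scaled by library totals alone. The SNX631 effect with R1881 minus that without was 0.32 ± 0.10 (FDR 0.0273), short of the limit.

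SMAD6 (chr15:66702228-66782848), the feedback inhibitor whose window held the SMAD palindrome, passed the FDR limit in no inhibitor contrast. With vehicle at 24 h it measured 38.2, 35.8 and 37.0 CPM and with Senexin B 39.7, 43.8 and 41.5 CPM. The groups did not overlap, but the difference of 0.17 ± 0.06 missed the limit (FDR 0.0155), as did that with R1881 (0.14 ± 0.06, FDR 0.0789). At 72 h, SMAD6 stood at 29.6 ± 1.81 CPM with vehicle and 28.7 ± 2.45 CPM with SNX631, and at 34.0 ± 1.77 and 34.4 ± 3.53 CPM with R1881 alone and with both agents (mean ± SD, n = 4). Both differences were near 0, at -0.04 ± 0.07 (FDR 0.685) and 0.02 ± 0.06 (FDR 0.869), and their signs turned as single libraries were left out.

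SNX631 replicate 4 lay at an end of its group for several members. It was the lowest of the 4 for ID1, ID2, ID3, SMAD6 and BMPR1B and the highest for BMP6. A screen for outlying values (Dixon's test) marked only its BMPR1B value. Every library was left out in turn, and the fit without this one is given here. Without it the SNX631 difference of ID1 was -0.21 with an FDR of 0.0108, no longer under 0.01. That of ID3 was then 0.21 with an FDR of 6.52e-05, now under it, and that of ID2 0.23 (FDR 3.06e-05). None of these passed the fold limit, and SMAD6 stood at 0.01. The BMP6 difference was 2.27 without this library.

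**Figure D2:**
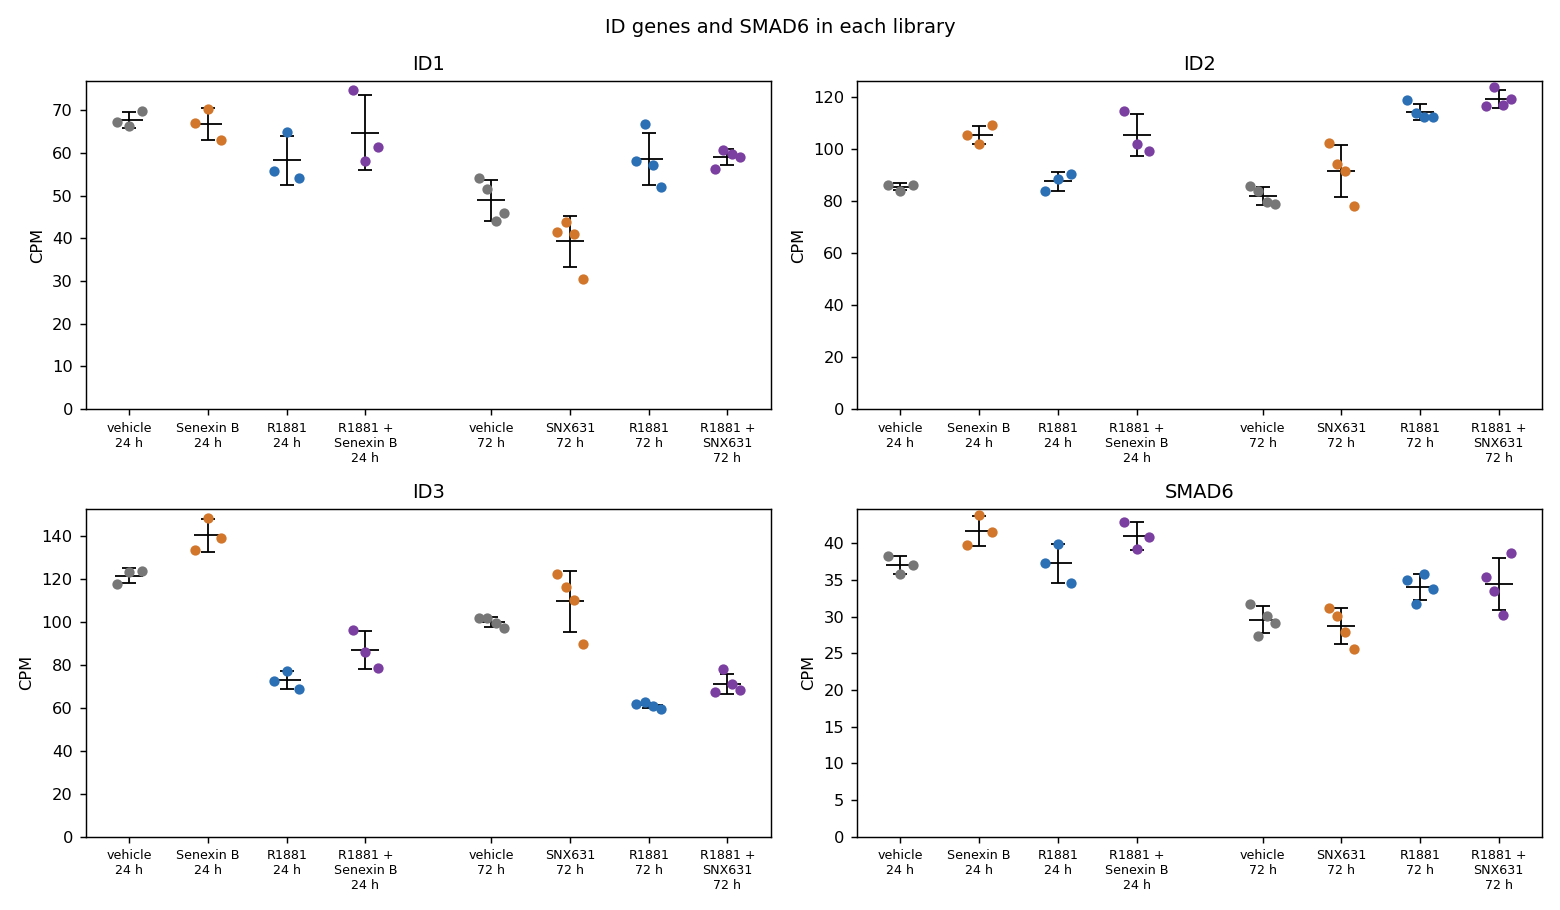
RNA of ID1, ID2, ID3 and SMAD6 in each library, in CPM on axes that start at 0, by group (3 libraries each at 24 h, 4 each at 72 h); points are libraries, bars the mean ± SD. Inhibitor and control groups lie close together for each gene, and the clearest step is the lower ID3 in the R1881 groups, from 59.4 to 77.1 CPM.

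The receptor genes did not pass the rule with inhibitor either. Across BMPR1A, BMPR1B and BMPR2, edgeR and DESeq2 both called 0 of 12 values, where edgeR called between 3.12 and 4.77% of all genes in these contrasts. An unadjusted p under 0.05 was met by 6 values, of which 3 were higher and 3 lower, and by between 42.1 and 49% of all genes. BMPR2 (chr2:202376936-202567751), the type II receptor, measured 285, 268 and 283 CPM with vehicle at 24 h and 241, 214 and 228 CPM with Senexin B, with no overlap (-0.29 ± 0.05, FDR 1.56e-05). At 72 h it measured 233, 224, 238 and 233 CPM with vehicle and 213, 199, 215 and 206 CPM with SNX631, again with no overlap (-0.16 ± 0.03, FDR 5.75e-05). With R1881 the BMPR2 differences were -0.06 ± 0.05 (FDR 0.376) and -0.08 ± 0.03 (FDR 0.0203).

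BMPR1B (chr4:94757968-95158448), a type I receptor, had inhibitor differences between 0.13 and 0.31 on the log2 scale, all with an FDR over 0.01. BMPR1A (chr10:86756601-86932838), the other type I receptor, had differences between -0.09 and 0.08, with an FDR of 0.13 or more. Taking the 7 tested members other than BMP6, all Senexin B libraries lay above all vehicle libraries for 4 and below for 1, where 23.5% and 22.3% of all genes did so. With R1881 at 24 h the counts were 3 above and 0 below (22.6% and 19.5% of all genes). With SNX631 they were 0 above and 2 below without R1881 (17.6% and 15.4%), and 2 above and 1 below with it (19.9% and 17.8%).

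**Figure D3:**
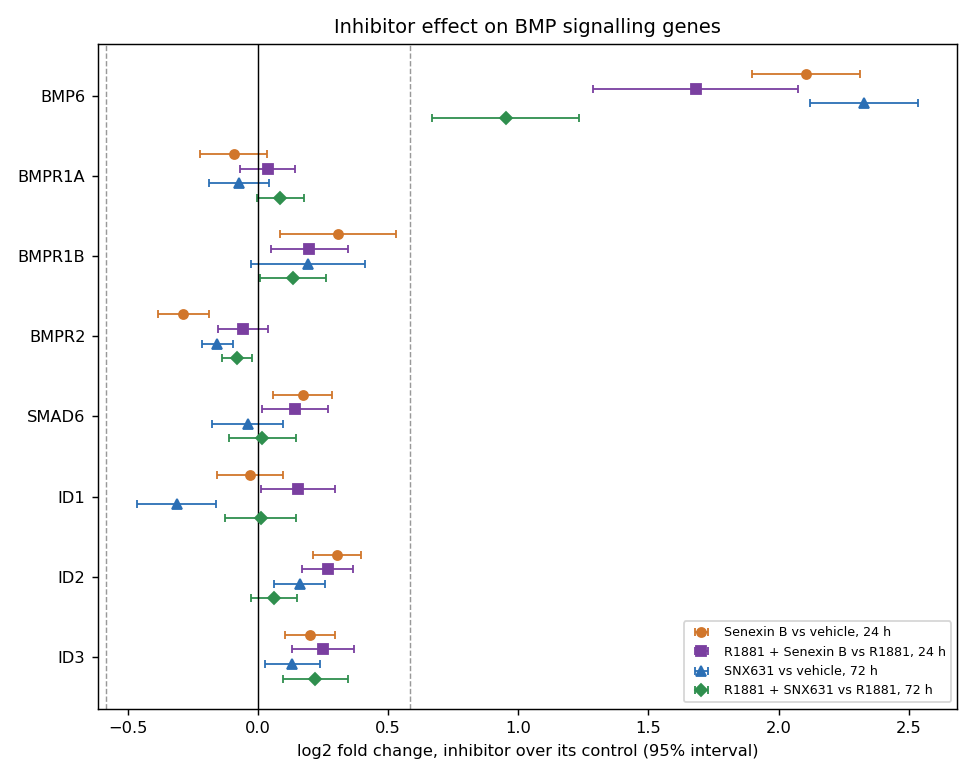
Log2 fold change of the 8 tested members in the 4 inhibitor contrasts, with 95% intervals from the edgeR fits; dashed lines mark the fold limit of 1.5 (0.585 on the log2 scale). BMP6 lies to the right of the upper line in all 4 contrasts, and every interval of the other 7 genes lies between the lines.

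R1881 raised the RNA of the type I receptors BMPR1A and BMPR1B and lowered that of ID3 in both experiments. By the rule used here, 3 of the 7 tested members other than BMP6 were called in each contrast (24 h without inhibitor and with Senexin B, then 72 h without inhibitor and with SNX631). Of all genes, 19, 18.9, 19.8 and 22% were called. BMPR1A and BMPR1B were the higher ones each time, where 9.81, 9.97, 9.7 and 10.1% of all genes were called higher. ID3 was the lower one each time, where 9.19, 8.9, 10.1 and 12% of all genes were called lower. BMP6 was chosen by its values in the same libraries and is left out of the counts above. With BMP6 included, libraries of R1881 lay wholly above their control for 3, 3, 4 and 5 of the 8 members (31.6, 32.5, 28.9 and 30.3% of all genes) and wholly below for 3, 2, 2 and 2 (30.5, 29.8, 26.1 and 27.5%). BMP6 was among those below each time, which is not separate evidence.

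BMPR1B showed the largest rise. It measured 7.51, 6.63 and 8.13 CPM with vehicle at 24 h and 32.1, 28.9 and 28.4 CPM with R1881, a 3.89-fold difference (1.96 ± 0.09, FDR 4.42e-19). With Senexin B it went from 9.74, 10.5 and 8.23 CPM to 33.5, 36.3 and 32.7 CPM (1.85 ± 0.09, FDR 2.98e-18). At 72 h the vehicle libraries had 6.53, 5.50, 5.41 and 6.24 CPM and the R1881 libraries 22.5, 23.1, 21.9 and 20.5 CPM (1.90 ± 0.09, FDR 1.99e-21). With SNX631 the rise was 1.84 ± 0.08 (FDR 3.68e-22). No group overlapped its control.

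BMPR1A rose from 33.8, 33.2 and 36.7 CPM with vehicle to 77.1, 76.1 and 71.2 CPM with R1881 at 24 h (1.09 ± 0.06, FDR 1.36e-17). The rise was 1.22 ± 0.06 with Senexin B (FDR 3.59e-18). At 72 h it went from 32.7, 32.3, 37.0 and 33.9 CPM to 61.9, 56.4, 62.5 and 62.7 CPM (0.84 ± 0.05, FDR 3.97e-17), and the rise with SNX631 was 1.00 ± 0.05 (FDR 5.88e-20). The pseudogene RPAP2P1 and the small nuclear RNA gene RNU1-19P overlap BMPR1A, and 1 of the 28 BMPR1A values had a fractional part. BMPR2 was higher with R1881 by 0.29 ± 0.05, 0.52 ± 0.05, 0.22 ± 0.03 and 0.30 ± 0.03 (24 h without and with inhibitor, then 72 h), each with an FDR of 3.2e-06 or less and without overlap, but under the fold limit.

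**Figure D4:**
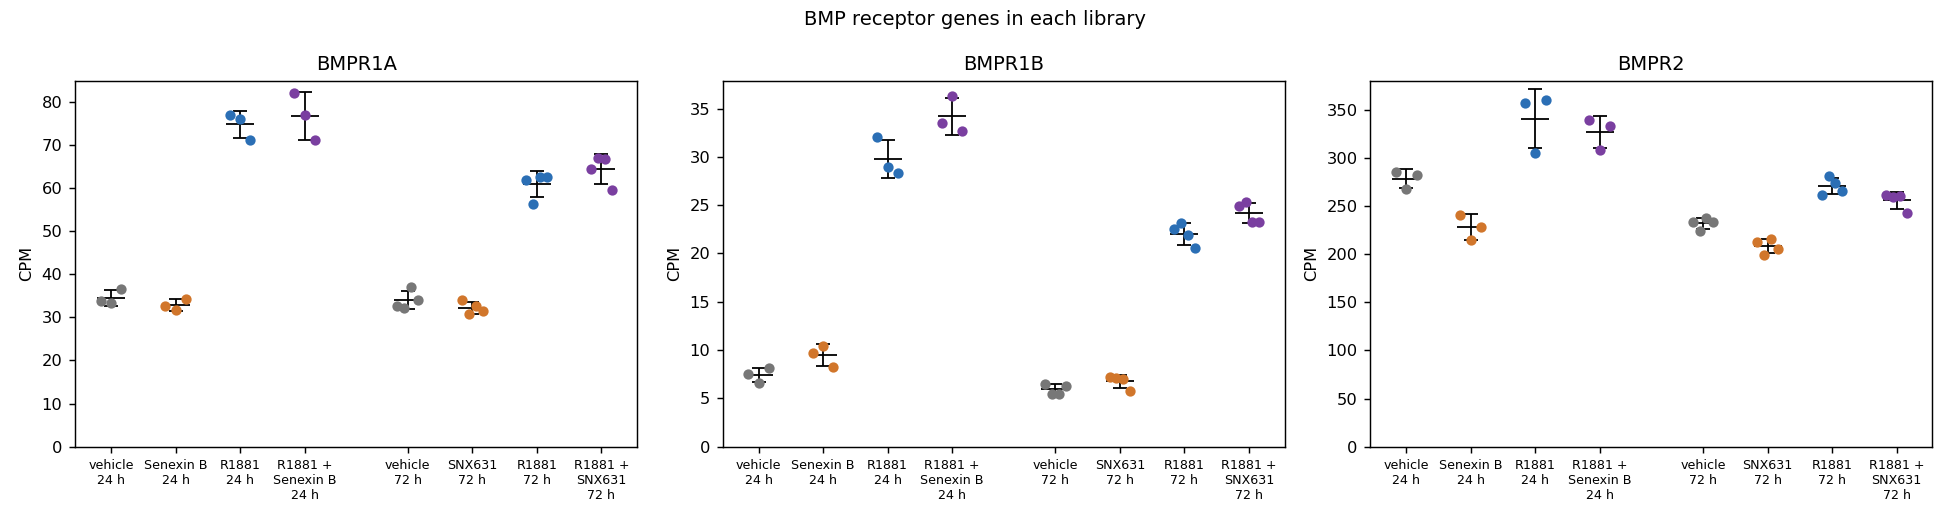
RNA of the receptor genes BMPR1A, BMPR1B and BMPR2 in each library, in CPM on axes that start at 0, by group (3 libraries each at 24 h, 4 each at 72 h); points are libraries, bars the mean ± SD. All R1881 groups lie above the groups without R1881 for BMPR1A (56.4 CPM and more) and BMPR1B (20.5 CPM and more), and the steps of BMPR2 are smaller.

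Among the targets, ID3 fell with R1881 in all 4 contrasts, by 0.74 ± 0.05 and 0.69 ± 0.05 at 24 h (without and with Senexin B, FDR 1.04e-13 and 3.71e-13). At 72 h it fell by 0.71 ± 0.06 and 0.62 ± 0.05 (without and with SNX631, FDR 2.42e-13 and 8.99e-13). The last of these rested close to the limit, and without SNX631 replicate 1 it was -0.57, under the fold limit. Every R1881 library lay below every library of its control for ID3 and for BMP6.

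ID1 and ID2 took other courses with R1881. ID1 was lower at 24 h without inhibitor (-0.23 ± 0.07, FDR 0.00375) and higher at 72 h (0.26 ± 0.07, FDR 0.00155). With SNX631 it was higher by 0.58 ± 0.07 (FDR 3.56e-09), a 1.499-fold difference just under the fold limit. It passed that limit with DESeq2 (0.59) and in 7 of 16 fits with a library left out, by SNX631 replicates 1, 2 or 3, R1881 replicates 2, 3 or 4, or replicate 1 of both agents. Without SNX631 replicate 4 this value was 0.48. ID2 was at 0.03 ± 0.05 and -0.0024 ± 0.046 at 24 h, and higher at 72 h by 0.48 ± 0.05 and 0.38 ± 0.04 (FDR 2.83e-11 and 1.81e-09) without overlap. SMAD6 had 0.01 ± 0.06 and -0.02 ± 0.06 at 24 h and 0.20 ± 0.07 and 0.26 ± 0.06 at 72 h (FDR 0.00897 and 0.000641), under the fold limit. With scaling by library totals alone the 24 h values of ID2 and SMAD6 without inhibitor turned sign.

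**Figure D5:**
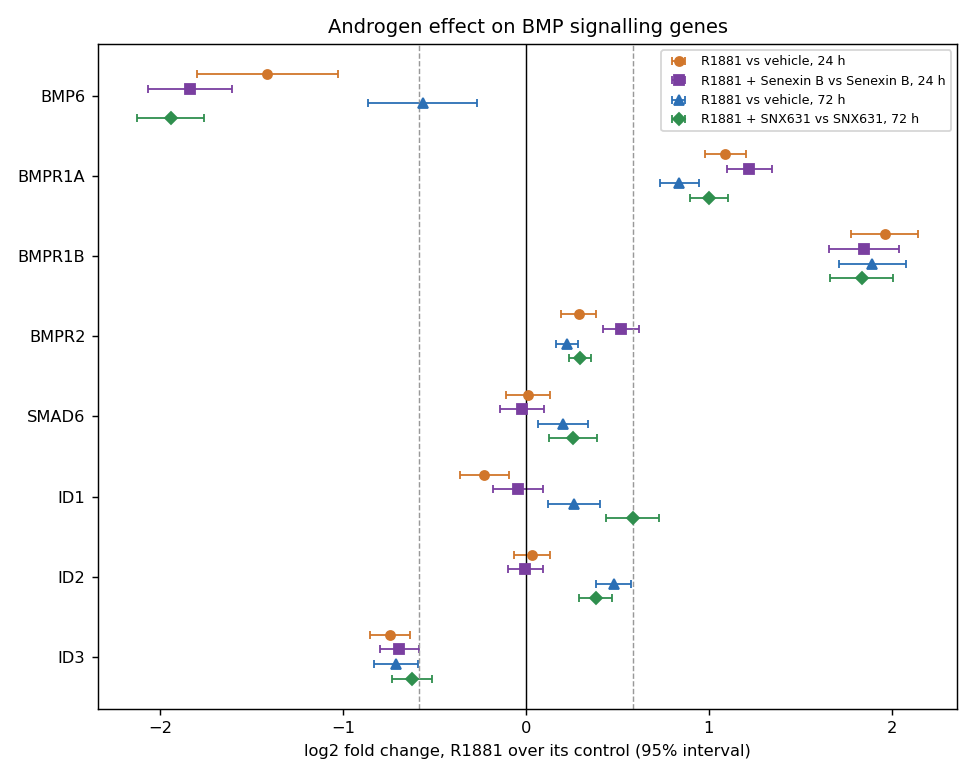
Log2 fold change of the 8 tested members in the 4 R1881 contrasts, with 95% intervals from the edgeR fits; dashed lines mark the fold limit of 1.5. BMPR1A and BMPR1B lie right of the upper line and ID3 left of the lower line. BMP6 lies left of the lower line except at 72 h without inhibitor (-0.56), just inside it. The ID1 value with SNX631 (0.58) lies next to the upper line.

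Whether the inhibitor effect differed between androgen states was tested for the 7 members other than BMP6. The edgeR interaction called 0 of 7 in each experiment and DESeq2 also 0, where 0.577% of all genes were called at 24 h and 1.19% at 72 h. An unadjusted p under 0.05 was met by BMPR2 at 24 h (0.23 ± 0.07, FDR 0.0435), and at 72 h by ID1 (0.32 ± 0.10, FDR 0.0273) and BMPR1A (0.16 ± 0.07, FDR 0.158), where 16.7% and 25.1% of all genes met it. The 95% intervals of these 3 differences left out 0.

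Set on a scale of CPM per kilobase of exon, which allows levels of different genes to be compared, ID3 was the most abundant member with vehicle at 24 h, at 67.7 ± 1.89 (SD, n = 3). ID1 stood at 55.0 ± 1.50 and ID2 at 38.8 ± 0.593 on that scale. BMPR2 was the most abundant receptor, at 23.4 ± 0.794, against 3.03 ± 0.162 for BMPR1A and 1.18 ± 0.120 for BMPR1B. BMP6 stood at 3.53 ± 0.0651 and reached 15.3 ± 0.821 with Senexin B, still below ID3, ID1 and ID2. SMAD6 stood at 4.32 ± 0.138. Fractional counts, in which a read is shared out between genes or places, occurred in 14 of 28 libraries for ID1, 9 for SMAD6, 7 for BMPR2 and 1 for BMPR1A. They occurred in 0 libraries for the other members, ID2 and BMP7 among them.

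The rest of the pathway was read from a list of 71 genes by role, of which 43 were tested at 24 h and 42 at 72 h. Among the 15 ligands, 12 had group means of no more than 0.5 CPM and 5 of those had 0 counts in every library. The other expressed ligands, BMP8A and BMP8B, reached group means of 3.66 and 4.60 CPM. They were not called in any inhibitor contrast. BMP8A fell with R1881 at 24 h without inhibitor (-0.97 ± 0.24, FDR 0.000555) and at 72 h without inhibitor (-1.02 ± 0.20, FDR 2.88e-05) and with SNX631 (-0.65 ± 0.20, FDR 0.00414). In the presence of Senexin B it was not called with R1881, at 3.07 ± 0.892 CPM without and 1.91 ± 0.507 CPM with R1881.

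Outside the members, 0 of 35 tested genes were called with Senexin B without R1881 and 0 of 35 with it. DESeq2 called 0 in each. With SNX631, 1 of 34 was called without R1881 and 2 of 34 with it, by edgeR and by DESeq2. The count with SNX631 alone ran from 1 to 3 as single libraries were left out, and exceeded 1 in 14 of 16 such fits. At an unadjusted p under 0.05 there were 3 genes higher and 10 lower, then 4 and 10, with Senexin B, and 3 and 11, then 3 and 14, with SNX631. Of all genes, between 22.6 and 25.1% were higher and between 19.4 and 23.9% lower by that measure. Of all genes, 3.79, 3.12, 4.77 and 4.12% were called in these contrasts. The median inhibitor effect over all tested list genes was -0.09, 0.02, -0.06 and -0.07 on the log2 scale, where the median over all genes lay between -0.01 and 0.01.

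The genes called outside the members were named after their values were seen. PCSK5, a proprotein convertase that can process ligands of this superfamily, rose with SNX631 (1.09 ± 0.22, FDR 8.59e-05), from 1.36 ± 0.312 to 2.91 ± 0.881 CPM. ID4, the further member of the ID family, fell with SNX631 in the presence of R1881 (-0.69 ± 0.14, FDR 7.88e-05), from 7.03 ± 1.13 to 4.33 ± 0.794 CPM. ATOH8, listed as a target, fell in the same contrast (-0.67 ± 0.17, FDR 0.00141), from 3.51 ± 0.277 to 2.22 ± 0.259 CPM, on 26 to 43 counts per library. It was not called in the other inhibitor contrasts. Its group means were higher with Senexin B, from 8.83 to 10.5 CPM without R1881 and from 3.29 to 3.76 CPM with it. With SNX631 without R1881 they went from 3.44 to 2.56 CPM.

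SMAD9, a receptor-activated SMAD and itself known as a BMP target, was lower with inhibitor in each contrast without reaching the fold limit. The differences were -0.39 ± 0.05 and -0.37 ± 0.05 with Senexin B and -0.58 ± 0.07 and -0.35 ± 0.05 with SNX631, with FDR between 1.37e-08 and 1.71e-06. SMAD9 was picked after its values were seen. At FDR under 0.01 with no fold limit, 3, 4, 6 and 11 list genes outside the members were lower. By the same measure 2 were higher each time. Of all genes, 11.7, 9.99, 12.5 and 15.4% were lower and 13.5, 12.7, 14.4 and 17.8% higher. R1881 raised it, from 38.2 ± 1.50 to 67.5 ± 3.02 CPM at 72 h (0.82 ± 0.06, FDR 4.13e-15), and by 0.60 ± 0.05 at 24 h (FDR 2.96e-12).

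The list was also read for R1881, where 19, 18.9, 19.8 and 22% of all genes were called. Outside the members, 15 of 35 tested genes were called at 24 h without inhibitor (6 higher and 9 lower) and 11 with Senexin B (5 and 6). At 72 h, 13 of 34 were called without inhibitor (7 and 6) and 12 with SNX631 (6 and 6). HEY1, a Notch and BMP target, rose from 2.15 ± 0.155 to 11.8 ± 0.444 CPM at 24 h (2.43 ± 0.14, FDR 8.14e-17) and from 1.00 ± 0.341 to 8.16 ± 0.470 CPM at 72 h (3.02 ± 0.23, FDR 3.62e-17). MSX2, a homeobox target gene, fell by 1.19 ± 0.14 and 1.18 ± 0.14 on the log2 scale (FDR 3.01e-09 and 2.01e-09). BAMBI, a decoy receptor, fell by 0.83 ± 0.11 at 24 h (FDR 2.86e-08). At 72 h it went from 23.5 ± 2.19 to 17.1 ± 0.860 CPM and was not called. NBL1, a secreted antagonist, rose by 0.62 ± 0.10 at 24 h (FDR 3.47e-06) and 1.08 ± 0.08 at 72 h (FDR 2.24e-14). These genes, too, were picked after their values were seen.

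Likeness to BMP6 and ID1 was read over the 28 libraries from log2 CPM, after the mean of each gene in each experiment was subtracted. Differences in level between the 2 experiments therefore play no part in it. Among 13883 genes of at least 1 CPM, the closest to BMP6 were ASPH (Pearson r = 0.970), MRPS27 (0.962), MIA3 (0.958), FAM8A1 (0.949) and TMEM184C (0.943). ASPH, an aspartyl hydroxylase, had group means from 142 CPM with R1881 to 299 CPM with Senexin B at 24 h. MRPS27, a mitochondrial ribosomal protein, went from 204 to 328 CPM between the same groups. Within each experiment, r with BMP6 was 0.93 or more for all of these. For ID1 the nearest were CHPF (0.827), YIPF2 (0.810), CYB5R3 (0.783), ATXN1 (0.760) and MOAP1 (0.754), so that no gene tracked ID1 as closely as those named before tracked BMP6. Within the 24 h libraries their r with ID1 was 0.71, 0.67, 0.26, 0.46 and 0.023, in that order. Within the 72 h libraries it was 0.85, 0.84, 0.85, 0.81 and 0.88. Between BMP6 and the other members, r is given within each experiment, over 12 libraries at 24 h and 16 at 72 h. It was 0.79 and 0.67 for ID3, -0.80 and -0.83 for BMPR2, -0.66 and -0.58 for BMPR1A, and -0.52 and -0.50 for BMPR1B. It had opposite signs in the experiments for ID1 (0.34 and -0.77), ID2 (0.61 and -0.34) and SMAD6 (0.54 and -0.53). The libraries behind these values share treatments, depth and scaling, so the values are a description and carry no p.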

How the data were processed

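RNA-Seq libraries (28) were made from LNCaP cells with a directional kit, per the labels. One table of expected counts was deposited, in which reads on several genes or places are shared as fractions (16.9% of values above 0), with no scaling. The submitters' processing notes name FastQC, cutadapt 2.8, STAR 2.7.2b, featureCounts and Subread 2.0.3, and the builds GRCh38.p13 and GRCm39. Their settings, the annotation release and the use of strand are not given in the sources used here. The deposited counts of 61815 human genes were rounded to whole numbers, and 2 added entries with 0 counts were left out. Replicates within each group all differed by more than sampling noise.

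Each experiment was fitted alone (R 4.3.3, edgeR 4.0.16, quasi-likelihood test, TMM, filterByExpr at its defaults, minimum count 10 and total 15), leaving 15948 genes at 24 h and 16074 at 72 h. Calls used the limits of the study, FDR below 0.01 (Benjamini-Hochberg) with fold change above 1.5. SE and 95% intervals are Wald values of the same fit. Scripts were tested on simulated data. Alternatives were DESeq2 1.42.0, other scalings, filters and limits, a replicate block, 1 fit of all libraries, and each library left out. Likeness was Pearson's r of log2 CPM (prior count 2) after the mean of each gene in each experiment was subtracted. Gene positions and lengths are from GENCODE 29, promoter windows from RefSeq. Figures used matplotlib 3.10.9.

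The members and lists were chosen with earlier results of these data known. Genes named were the 10 members, list genes called the same way in at least 2 of the 4 inhibitor contrasts (no gene met this; BMP6, whose inhibitor values were not tested, was not judged by it), and the 5 genes most like BMP6 and ID1. PCSK5, ID4, ATOH8, SMAD9, BMP8A, BMP8B, HEY1, MSX2, BAMBI and NBL1 fall outside that rule.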

Additional observations from a re-analysis of the deposited data

Results flagged for a closer look

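Each group of 4 libraries was screened for a member value far from the others, by Dixon's test at its 95% critical value. The screen covered 34 groups and marked 3, where chance marks about 1 in 20. BMPR1A in R1881 replicate 2 at 72 h was lowest, at 56.4 CPM with the nearest library at 61.9 CPM. BMPR1B in SNX631 replicate 4 at 72 h was lowest, at 5.79 CPM with the nearest at 6.96 CPM. BMPR2 in replicate 4 of R1881 with SNX631 was lowest, at 242.8 CPM with the nearest at 259 CPM. The groups of 3 libraries at 24 h were not screened.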

How the results depend on the processing

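The inhibitor values of BMP6 kept their direction in every alternative run, and 0 of the other 7 tested members was called in any inhibitor contrast or interaction except with the looser limit of FDR under 0.05 and no fold limit. That limit gave 5, 3, 4 and 2 of these 7 members in the inhibitor contrasts (24 h without and with R1881, then 72 h), and 1 and 1 in the interactions. With inhibitor, 5717 and 5257 of all 15948 genes passed it at 24 h, and 5864 and 6873 of all 16074 at 72 h. In the interactions, 719 and 2034 genes passed. With R1881 at 72 h, 8 and 8 of all 8 members passed without and with SNX631, BMP6 included, as did 9984 and 10562 of the 16074 genes. Other pathway genes then numbered 9, 8, 10 and 15 in the inhibitor contrasts, 27, 25, 27 and 27 in the R1881 contrasts, and 2 and 5 in the interactions. All genes with R1881 at 24 h then numbered 9307 and 9157 of 15948, without and with Senexin B. The pathway genes called with Senexin B alone went from 0 to 1 with no filter on low counts and with 1 fit of all libraries, and those called with SNX631 alone from 1 to 2 with these and with library totals only. Leaving out 1 library moved these counts between 0 and 1 with Senexin B alone (1 without vehicle replicate 2 or replicate 1 of both agents) and with R1881 (1 without R1881 replicate 3 or replicates 1 or 2 of both agents), and between 1 and 3 with SNX631 alone, where 14 of 16 fits gave more than 1 and SMAD9 lay just inside the fold limit, at -0.58. Scaling by library totals alone shifted the median of all genes with R1881 at 72 h by -0.10 and -0.11, to -0.116 and -0.122 (log2), with 1299 genes called higher and 2121 lower in place of 1559 and 1626 without SNX631. It turned the R1881 values at 24 h of SMAD6 to -0.066 and ID2 to -0.044, and the SNX631 values with R1881 of SMAD6 to -0.017 and ID1 to -0.023, and it brought BMP6 with R1881 at 72 h to -0.67, past the fold limit. With a library left out, values of ID1, ID2, ID3, SMAD6 and BMPR1A near 0 turned sign. Without R1881 the inhibitor values ran from -0.061 to 0.017 for ID1 at 24 h and from -0.081 to 0.0073 for SMAD6 at 72 h. With R1881 they ran from -0.025 to 0.092 for BMPR1A at 24 h, and at 72 h from -0.045 to 0.073 for SMAD6 and from -0.045 to 0.086 for ID1. The R1881 values at 24 h ran from -0.031 to 0.071 for SMAD6 without inhibitor, and with Senexin B from -0.060 to 0.011 for SMAD6, -0.16 to 0.025 for ID1 and -0.075 to 0.043 for ID2. The interactions ran at 24 h from -0.097 to 0.0054 for SMAD6, -0.12 to 0.0078 for ID2 and -0.044 to 0.12 for ID3, and at 72 h from -0.0025 to 0.12 for SMAD6. The cause of these changes was not tested, other than that a looser limit calls more genes. Same-numbered libraries were only weakly correlated, the 18 correlations at 24 h running from -0.015 to 0.067 and the 24 at 72 h from -0.068 to 0.073. Their medians were 0.014 and -0.0083, against -0.0091 and 0.0026 for other pairs. At 24 h, 8 of 12 libraries were closest to their own number, and at 72 h 2 of 16. Whether the numbers mark pairs at 24 h was not tested further. With a replicate block, 1 member changed its call, ID1 with R1881 in the presence of SNX631 (0.59, FDR 8.75e-11, past the fold limit), as it also did with DESeq2's size factors and test, no filter and 1 fit of all libraries. Depth limits BMP4 and BMP7, with at most 11 and 4 counts.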
